A study of Mus musculus with 3 samples.

Results

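The IkB family comprises the inhibitors and nuclear regulators of NF-kB, and its 6 members here were Nfkbia, Nfkbib, Nfkbie, Nfkbiz, Nfkbid and Bcl3. They were taken by symbol from the gene tables, which hold 55536 annotated genes, and were joined to their 24 transcripts of 141864. The RNA came from the chromatin fraction of macrophages grown from bone marrow (strain C57BL/6J) and was sequenced as total RNA after ribosomal RNA depletion. All 3 libraries belonged to 1 group: the cells were kept 12 h in lipid A at 100 ng/ml, 12 h without it after washing, and then 30 min in lipid A at 100 ng/ml. Lipid A is the membrane anchor of bacterial lipopolysaccharide and activates the receptor TLR4. The labels list the libraries as biological replicates 1, 2 and 3 from separate biosamples with a shared donor identifier, and give no age or sex. Cells with no exposure or only 1 exposure were not analysed here, so none of the levels is a response to lipid A, and p-values over libraries measure only the spread between these samples.

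IkB proteins carry ankyrin repeats, through which they bind NF-kB dimers. The classical members IkB-alpha (Nfkbia), IkB-beta (Nfkbib) and IkB-epsilon (Nfkbie) keep NF-kB out of the nucleus until IkB kinases phosphorylate them and they are degraded, and Nfkbia is a well known NF-kB target gene that closes a negative feedback loop. The atypical members IkB-zeta (Nfkbiz), IkB-NS (Nfkbid) and Bcl-3 (Bcl3) act inside the nucleus, where they bind NF-kB subunits on DNA and can raise or lower transcription of selected genes.

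The sequences upstream of the members are shown first, since NF-kB is known to act on several of these genes through sites near their starts. RefSeq promoter windows (GRCm38.p6) were matched for 5 of 6 members in 7 windows; Nfkbiz had no entry in the table used. The windows of 250 bases before the annotated start were searched on both strands for the kB consensus, the family of 10-base sites bound by NF-kB, and for one spelled version, GGGNNTTTCC. The kB consensus was in 7.25% of 32851 such windows of 27025 genes, and GGGNNTTTCC in 1.41%. It was in the windows of Nfkbia and Nfkbie and in 1 of the 3 windows of Nfkbid, and in none of the windows of Bcl3 and Nfkbib. The 4 sequences below run 5′ to 3′ towards the start of the gene, with kB consensus matches in capitals, and show the 3 windows with a match and that of Bcl3.
Nfkbia, chr12:55492648-55492897, minus strand: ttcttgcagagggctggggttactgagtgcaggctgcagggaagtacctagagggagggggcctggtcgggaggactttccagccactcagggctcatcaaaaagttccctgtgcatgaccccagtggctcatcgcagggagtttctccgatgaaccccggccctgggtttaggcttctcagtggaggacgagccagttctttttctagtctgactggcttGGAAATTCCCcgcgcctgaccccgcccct
Nfkbie, chr17:45555450-45555699, plus strand: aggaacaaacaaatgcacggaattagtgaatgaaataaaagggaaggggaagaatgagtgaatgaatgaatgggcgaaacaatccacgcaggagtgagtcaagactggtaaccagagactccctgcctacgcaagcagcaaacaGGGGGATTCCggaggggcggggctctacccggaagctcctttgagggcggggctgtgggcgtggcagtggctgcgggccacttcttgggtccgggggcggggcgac
Nfkbid, start of transcript Nfkbid-202, chr7:30422156-30422405, plus strand: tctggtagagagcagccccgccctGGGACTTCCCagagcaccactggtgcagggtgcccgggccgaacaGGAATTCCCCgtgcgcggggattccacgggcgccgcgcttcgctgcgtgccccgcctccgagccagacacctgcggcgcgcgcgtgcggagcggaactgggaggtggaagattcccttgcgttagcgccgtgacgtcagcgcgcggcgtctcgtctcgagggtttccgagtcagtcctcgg
Bcl3, chr7:19822771-19823005, minus strand: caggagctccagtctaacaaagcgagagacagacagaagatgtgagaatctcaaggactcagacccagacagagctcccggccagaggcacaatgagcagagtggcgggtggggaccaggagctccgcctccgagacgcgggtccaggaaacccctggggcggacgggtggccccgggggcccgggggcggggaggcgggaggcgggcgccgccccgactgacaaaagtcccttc
The Nfkbia match, GGAAATTCCC, lay 29 to 20 bases before the start and reads GGGNNTTTCC on the opposite strand, so both motifs fell on the same bases. The Nfkbie match, GGGGGATTCC, lay 106 to 97 bases before the start. In Nfkbid, GGGACTTCCC, 226 to 217 bases before the start, matched on both strands, and GGAATTCCCC lay 181 to 172 bases before it. The Bcl3 sequence is 235 bases long because the last 15 bases of its window belong to the first exon of its main protein-coding transcript. In the Nfkbib window 133 bases are exons of Sirt2 on the other strand, and it is not printed. A match describes letters only, and binding was not measured. Whether matches go with the levels or their spread between libraries was not tested.

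All 6 IkB family genes were well above the floor of 1 TPM (a transcript level corrected for length and scaled to a fixed sum). Tested one-sided against 1 TPM with limma across 24180 genes, 6 of 6 members passed the threshold of adjusted p 0.05, against 50.5% of all genes tested. Their median level was 78.01 TPM, and that of all genes tested was 2.02 TPM. Nfkbia and Nfkbiz had the highest levels, at ranks 89 and 108 of 15108 nuclear protein-coding genes with a nonzero level, and Nfkbib had the lowest, at rank 2262. A lower level in bulk RNA can come from fewer cells or from less RNA per cell, which cannot be told apart.

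**Figure D1:**
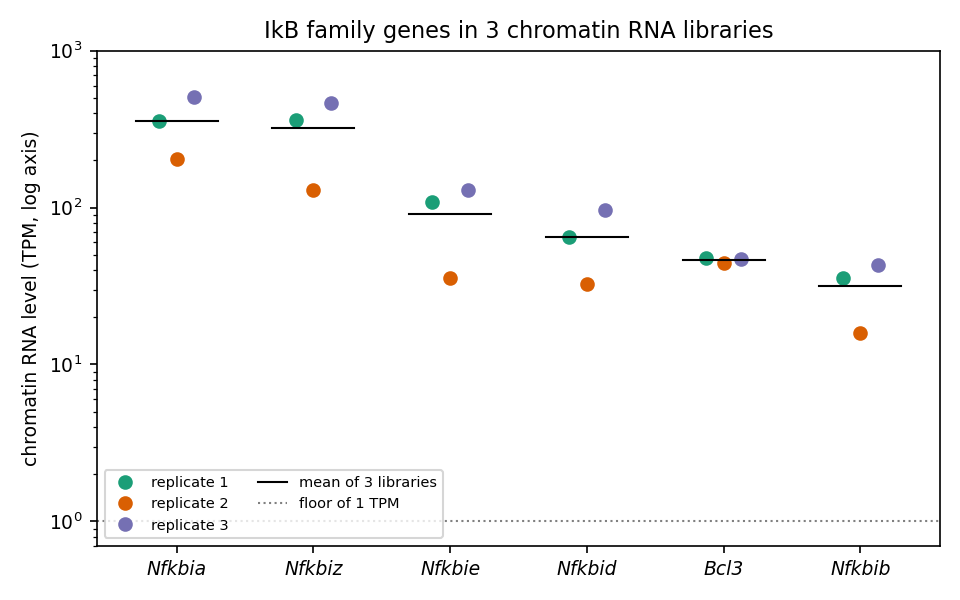
Level of each IkB family gene (TPM, log axis) in the 3 libraries, as points coloured by replicate, with the mean as a black line and the floor of 1 TPM dotted. In every gene but Bcl3 the replicate 2 point lies well below the others, while the 3 Bcl3 points lie between 44.6 and 47.6 TPM.

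Among the classical inhibitors, Nfkbia (mm10 chromosome 12, 55489410 to 55492647, minus strand) had 359 TPM in replicate 1, 206 TPM in replicate 2 and 509 TPM in replicate 3, a mean of 358 ± 152 TPM (SD, n = 3). On the log2(TPM + 0.1) scale this is 8.25 units over the floor (SE 0.26, limma adjusted p = 2.38e-06), with 3 of 3 libraries above it. Nfkbie (chromosome 17, 45555703 to 45563169, plus strand) had 109, 35.5 and 130 TPM in replicates 1, 2 and 3, a mean of 91.5 ± 49.6 TPM (SD, n = 3; limma adjusted p = 3.15e-05). Replicates 1 and 3 were close together in Nfkbie and replicate 2 was far below both. Nfkbib (chromosome 7, 28758251 to 28767512, minus strand) had 35.4, 15.9 and 43.3 TPM, a mean of 31.5 ± 14.1 TPM (SD, n = 3; limma adjusted p = 3.19e-05). Within every library Nfkbia was above Nfkbie and Nfkbie above Nfkbib, so the 3 classical genes kept 1 order although their levels differed between libraries.

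Among the nuclear members, Nfkbiz (chromosome 16, 55811375 to 55838899, minus strand) had 364 TPM in replicate 1, 130 TPM in replicate 2 and 465 TPM in replicate 3, a mean of 320 ± 172 TPM (SD, n = 3). On the log2(TPM + 0.1) scale it exceeded the floor by 7.99 (SE 0.37, limma adjusted p = 9.88e-06). Nfkbid (chromosome 7, 30421732 to 30428746, plus strand) had 64.6, 32.7 and 96.4 TPM, a mean of 64.6 ± 31.9 TPM (SD, n = 3; limma adjusted p = 1.6e-05). Both had their lowest value in replicate 2 and their highest in replicate 3. Bcl3 (chromosome 7, 19808462 to 19822770, minus strand) had 47.6, 44.6 and 46.8 TPM, a mean of 46.3 ± 1.54 TPM (SD, n = 3; limma adjusted p = 5.28e-07). Its 3 libraries were nearly equal in these TPM values, and its adjusted p was the smallest of the 6 although its mean was the second lowest.

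The order of the mean levels was Nfkbia, Nfkbiz, Nfkbie, Nfkbid, Bcl3 and Nfkbib. Differences were taken within each library for the 15 pairs, and with 3 libraries the exact two-sided sign-flip permutation test cannot give a p below 0.25, or 0.312 after Benjamini-Hochberg adjustment over the 15 pairs, so no pair can pass. In 12 of 15 pairs the difference had 1 sign in all 3 libraries, and in 11 of 15 its mean exceeded its SD. Nfkbia and Nfkbiz did not differ beyond their spread: the difference of log2 levels was 0.26 ± 0.36 (SD, n = 3; exact p = 0.5), with Nfkbiz slightly above in replicate 1. Nfkbiz was above Nfkbie by 1.82 ± 0.066 log2 units (SD, n = 3; exact p = 0.25), 3.34 to 3.65-fold in each library, so these genes kept almost 1 ratio. Nfkbie was above Nfkbid by 0.43 ± 0.32 log2 units (SD, n = 3; exact p = 0.25). Nfkbid and Bcl3 did not differ beyond their spread, at 0.34 ± 0.75 (SD, n = 3; exact p = 0.75), and Nfkbid was the lower of them in replicate 2. Bcl3 was above Nfkbib by 0.67 ± 0.72 log2 units (SD, n = 3; exact p = 0.25), from 1.08-fold in replicate 3 to 2.8-fold in replicate 2. In the second transcript table, which estimates the same libraries from reads directly, the means were 613 TPM for Nfkbia, 404 TPM for Nfkbiz, 117 TPM for Bcl3, 117 TPM for Nfkbid, 86.9 TPM for Nfkbie and 57.3 TPM for Nfkbib. There the highest pair and the lowest gene were the same, and Nfkbie was below Nfkbid and Bcl3.

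Every member but Bcl3 was lowest in replicate 2, by a wide margin, and highest in replicate 3. Replicate 3 was above replicate 2 by 3.66-fold in Nfkbie, 3.58-fold in Nfkbiz, 2.95-fold in Nfkbid, 2.72-fold in Nfkbib and 2.48-fold in Nfkbia, and by 1.05-fold in Bcl3. The order replicate 2, 1, 3 was found in 5 of 6 members and in 13.5% of the 5223 nuclear protein-coding genes with a mean of at least 10 TPM. The SD of the log2 level over the libraries was 0.66 in Nfkbia, 0.76 in Nfkbib, 0.79 in Nfkbid, 0.98 in Nfkbiz and 1.014 in Nfkbie. These lie at percentiles 96.5 to 99.2 of the 5223 genes, whose median was 0.19. In Bcl3 the SD was 0.048, at percentile 5.48. It was 0.099 under TMM, 0.101 under DESeq2's size factors and 0.037 after rescaling TPM over nuclear protein-coding genes. The tables give an interval around each level, whose coverage the headers do not state. For the 5 variable genes no intervals of any pair of libraries overlapped, as in Nfkbib with 29.2 to 35.7, 13.2 to 17.1 and 37.1 to 43.4 TPM. For Bcl3 all 3 overlapped, at 39.2 to 51.1, 38.0 to 47.4 and 39.8 to 49.96 TPM. The intervals were also wider in Bcl3, at 22.0% to 26.4% of the level, against 4.57% to 6.85% in Nfkbia. How many other genes lack overlap was not counted, so the overlaps do not set these members apart from other genes.

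**Figure D2:**
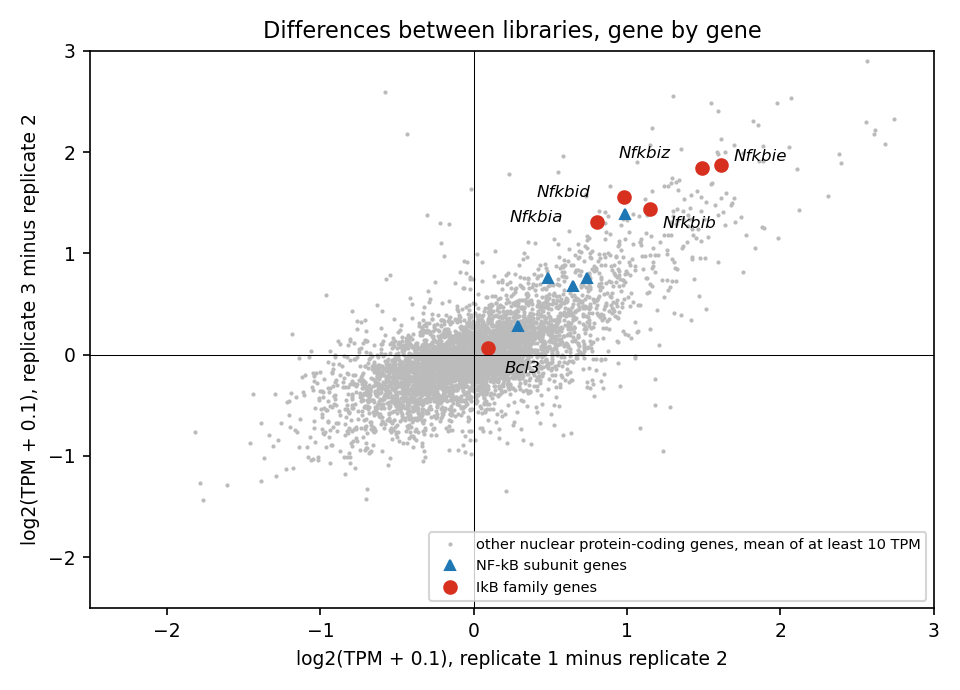
Difference of log2(TPM + 0.1) between replicates 1 and 2 (horizontal) and between replicates 3 and 2 (vertical) for 5223 nuclear protein-coding genes of at least 10 TPM (grey; 6 lie outside the axes), the NF-kB subunit genes (blue triangles) and the IkB family genes (red). Both axes subtract the same library, so the diagonal shape is built in; 5 IkB family genes lie at the upper right, between 1.31 and 1.87 on the vertical axis, and Bcl3, whose small differences change sign with the scaling, lies near 0.

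The pattern of the 5 genes rested on replicate 2. Between replicates 1 and 3 alone, the fold was 1.19 in Nfkbie, 1.22 in Nfkbib, 1.28 in Nfkbiz, 1.42 in Nfkbia and 1.49 in Nfkbid. The biological coefficient of variation, edgeR's estimate of the spread beyond counting noise, was 0.3 to 0.385 in these 5 genes, at percentiles 91.5 to 98.1 of 14140 genes. With no filter on low counts, which adds many genes of few reads, it was at percentiles 51.1 to 66.4 of 24161 genes. Without replicate 2 it was 0.148 to 0.168, at percentiles 15.3 to 39.4. For Bcl3 it was 0.164 with all libraries and 0.151 without replicate 2. The 5 genes stayed lowest in replicate 2 and highest in replicate 3 under TMM, under DESeq2's size factors, after rescaling TPM over nuclear protein-coding genes and in the second transcript table. The order of the Bcl3 libraries had no such stability: rescaled TPM put replicate 1 lowest and replicate 2 highest, and TMM put replicate 3 highest. The second transcript table gave 131, 119 and 99.7 TPM in replicates 1, 2 and 3. The spread of Bcl3 was wider there, at 117 ± 15.9 TPM against 46.3 ± 1.54 TPM above (SD, n = 3 each).

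Other features of the libraries differed too. Nuclear protein-coding genes held 33.3%, 29.7% and 31.4% of the TPM in replicates 1, 2 and 3, the least in replicate 2. Replicate 1 was made from 1 µg of RNA, replicate 2 from 250 ng and replicate 3 from 500 ng, so replicate 2 had the least RNA, and input and replicate cannot be told apart. Total expected counts on annotated genes were 12401783, 18317179 and 18164629, and 2 genes of the ribosomal RNA locus on chromosome 17, Gm26917 and CT010467.1, took 9.71%, 18.6% and 16.3% of them. All 8 macrophage markers passed the floor, against 50.5% of all genes tested, with summed levels of 1023, 1038 and 1108 TPM. Of 31 markers of other blood and tissue cells, 2 passed, Cd4 with 7.33 TPM and Pf4 with 3.32 TPM. Of the 31, 11 were at 0 in all libraries, Cd3e, Pax5, Ly6g and S100a8 among them. Of all 55536 annotated genes, 24180 had a nonzero level in at least 1 library, so a level of 0 was common. The summed level of the 31 markers was 15.4, 17.5 and 19.0 TPM. The part of depth, ribosomal RNA, the protein-coding share and these markers in the differences between libraries was not tested.

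The transcripts assigned to each member differed in kind, which matters in chromatin RNA because it holds RNA that is still being spliced. Among members with a transcript annotated as retaining an intron, Nfkbie had the highest share of expected counts on it. This share was 76.6% ± 4.67 (SD, n = 3), on Nfkbie-202. The shares were 77.3%, 80.9% and 71.7% in replicates 1, 2 and 3. Among 6447 nuclear protein-coding genes of at least 1 TPM with such a transcript the median share was 28.4%, and Nfkbie was at percentile 91.6. Nfkbie-202 holds the whole of intron 2 of Nfkbie-201, 610 bases on chromosome 17. Its ends are shown because they are what separates the retained from the spliced form, with the first and last 2 bases of the intron in capitals.
Nfkbie intron 2, first 60 bases, chr17:45558598-45558657, plus strand: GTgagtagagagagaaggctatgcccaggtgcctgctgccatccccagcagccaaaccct
Nfkbie intron 2, last 60 bases, chr17:45559148-45559207, plus strand: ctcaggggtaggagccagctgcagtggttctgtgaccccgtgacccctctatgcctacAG
The intron begins with GT and ends with AG, the usual pair. The second transcript table gave Nfkbie-202 a share of 65.6% ± 4.71 (SD, n = 3), at percentile 84.0. Apart from this intron, Nfkbie-202 (3006 bases) and Nfkbie-201 (2435 bases) share nearly all their bases, so the split is an estimate. The share is not a measured fraction of RNA with the intron. It also depends on which introns are annotated as retained, which differs between members.

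**Figure D3:**
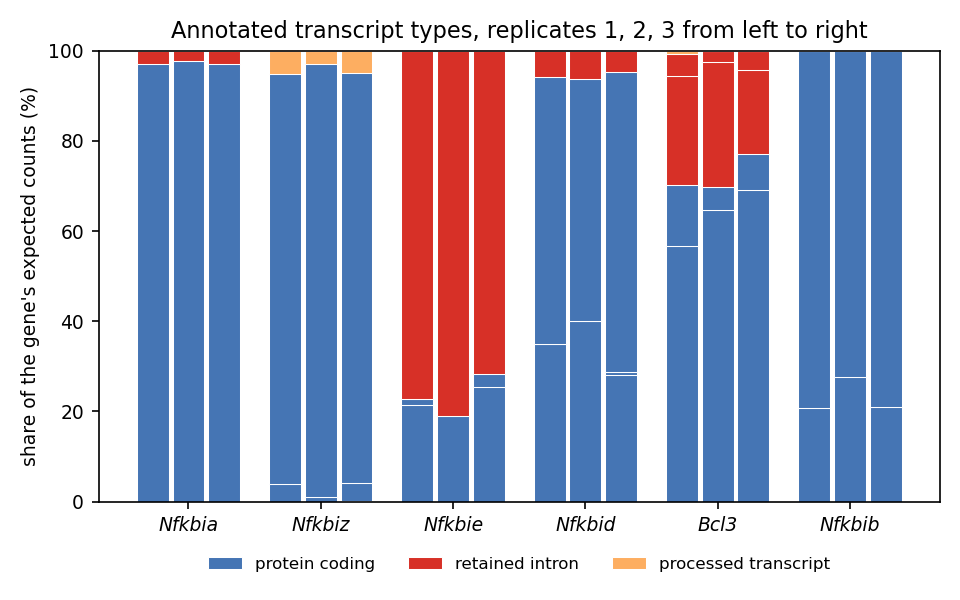
Share of each gene's expected counts (percent) on its annotated transcripts, stacked by type for replicates 1, 2 and 3 from left to right, with white lines between transcripts. Retained-intron transcripts (red) fill 71.7% to 80.9% of Nfkbie and 22.9% to 30.3% of Bcl3, at most 6.27% of Nfkbid and Nfkbia, and are absent from the annotation of Nfkbiz and Nfkbib.

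The other members had smaller shares on such transcripts. In Bcl3 the share was 27.4% ± 3.99 (SD, n = 3), near the median of all genes, on 2 transcripts that hold parts of introns 2 and 3. In Nfkbid it was 5.64% ± 0.77 (SD, n = 3), on Nfkbid-204, which holds all 114 bases of intron 7 of Nfkbid-203. That intron is printed for comparison with the long one of Nfkbie, in capitals at its ends.
Nfkbid intron 7, chr7:30425856-30425969, plus strand: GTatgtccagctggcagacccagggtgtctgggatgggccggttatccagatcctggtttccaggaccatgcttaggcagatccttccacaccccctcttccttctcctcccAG
In Nfkbia the share was 2.73% ± 0.30 (SD, n = 3) in the first transcript table and 16.7% ± 2.57 (SD, n = 3) in the second, so its size depended on the table. Nfkbia-202, the transcript concerned, holds only 32 bases of an intron. In Nfkbie, Nfkbid and Nfkbia the shares were closer between libraries than the levels: the Nfkbid level differed 2.95-fold between replicates 3 and 2, and its share lay within 4.78% and 6.27%. In Bcl3, whose level in the gene table was nearly equal in the libraries, the share lay within 22.9% and 30.3%.

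Nfkbiz counts fell mainly on a transcript with a start inside the gene. Nfkbiz-204 took 92.7% ± 2.96 (SD, n = 3) of the expected counts, and its first base lies 16761 bases downstream of that of Nfkbiz-201. Of the transcripts that begin at the upstream start, Nfkbiz-203 took 3.01% and the noncoding Nfkbiz-205 took 4.31%, and Nfkbiz-201 had 0 counts. In replicate 2 Nfkbiz-203 had 1.09% and in replicates 1 and 3 it had 3.88% and 4.06%. The second transcript table gave Nfkbiz-204 80.6% ± 7.97 (SD, n = 3). There Nfkbiz-203 had 18.2%, 2.39% and 6.69% in replicates 1, 2 and 3. Nfkbiz-202, which begins near the upstream start, had 0.18%, 3.24% and 8.26%. The shares of transcripts from the upstream start thus differed between the tables and between libraries. The transcripts share most exons, so these splits are estimates.

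**Figure D4:**
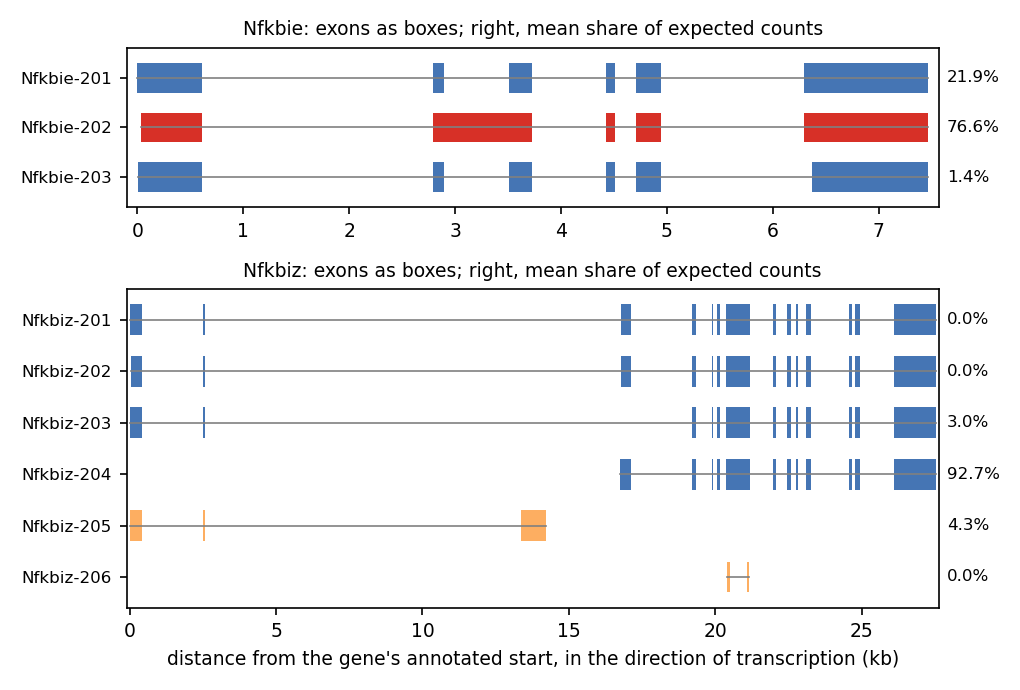
Exons (boxes) of the annotated transcripts of Nfkbie and Nfkbiz by distance in kb from the annotated start of the gene, in blue for protein-coding, red for retained-intron and orange for noncoding processed transcripts, with the mean share of expected counts at the right. Nfkbie-202, with 76.6%, runs on through intron 2, and Nfkbiz-204, with 92.7%, begins 16761 bases inside the gene.

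Nfkbid has 3 protein-coding transcripts with different starts, and the tables divided its reads among them differently. The first table gave Nfkbid-203 59.8% ± 6.49 and Nfkbid-201 34.3% ± 6.01 (SD, n = 3 each), and Nfkbid-202, whose upstream window holds the 2 kB positions printed above, 0.177%. The second table gave Nfkbid-202 43.1% ± 1.48 (SD, n = 3), the highest share of the gene. Which start these libraries used is therefore not settled by the tables. In Nfkbib, 76.8% ± 3.94 (SD, n = 3) of the counts were on Nfkbib-202 in the first table and the rest on Nfkbib-201. The second table gave Nfkbib-202 78.9%, Nfkbib-201 16.9% and Nfkbib-203 4.16%. In Bcl3, the noncoding processed transcripts took 0.222% in the first table and 26.2% in the second, and the 9-exon protein-coding transcript took 63.5% and 49.9%.

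Some members lie close to or over other genes, and whether the counting used strand is not given in the sources used here, so shared reads cannot be told apart. Slc35b2, a transporter gene, starts 704 bases beyond the end of Nfkbie on the same strand. It had 39.8, 13.6 and 76.3 TPM in replicates 1, 2 and 3, the same order of libraries as Nfkbie. Nfkbib overlaps Sirt2, a deacetylase gene on the other strand, by 778 bases. Sirt2 had 49.7, 39.6 and 43.1 TPM, a much smaller spread than that of Nfkbib. That overlap comes from Nfkbib-203, which had 0 expected counts in the first transcript table and 4.16% of the gene's counts in the second. At its other end Nfkbib overlaps Ccer2, also on the other strand, by 718 bases, all in Nfkbib-201. Ccer2 had 2.13, 1.21 and 2.31 TPM, the same order of libraries as Nfkbib at a far lower level. Bcl3 overlaps the antisense genes Gm16174, with 7.81, 5.12 and 5.33 TPM, and Gm16175, with 3.27 TPM in replicate 1 and listed at 0 in the others. Nxpe3, 1053 bases upstream of Nfkbiz on the same strand, had at most 0.79 TPM.

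The genes whose levels followed each member most closely were found by the root mean square difference of centred log2 levels over the 3 libraries, among 5222 other nuclear protein-coding genes of at least 10 TPM. Nfkbiz was nearest to Sdc4, the cell surface proteoglycan syndecan-4, with 194, 67.5 and 243 TPM and a distance of 0.015. Nfkbie was also nearest to Sdc4, at 0.040, and Nfkbie and Nfkbiz were each the second nearest gene of the other, at 0.054. Egr1, an immediate early transcription factor gene, came next for Nfkbie at 0.055, and Cd83, a surface protein of activated antigen-presenting cells, next for Nfkbiz at 0.060. Nfkbia was nearest to Gk, Gtf2ird2 and Dusp2, the last a nuclear phosphatase of MAP kinases with 191, 105 and 279 TPM. Dusp2 was also nearest to Nfkbid, at 0.066, followed by Bcl2a1b, a survival gene with close paralogs whose value is uncertain, and Cdkn1a, an inhibitor of the cell cycle. Nfkbib was nearest to Gdf15, Orai2 and Sowahc. Within a distance of 0.1 there were 8 to 19 genes for each of these 5 members and 1343 for Bcl3, or 25.7% of the genes compared, led by Pi4ka, Dhx57 and Cog5. With 3 libraries these distances are descriptions.

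The partners of the IkB proteins were present at a range of levels. The share of all 24180 genes tested that passed the floor, noncoding genes included, was 50.5%. The counts of passing genes below are to be read beside that share. All 5 NF-kB subunit genes passed the floor, led by Nfkb1 with 88.3 ± 9.74 TPM and Nfkb2 with 62.6 ± 16.0 TPM (SD, n = 3 each), whose precursors themselves contain ankyrin repeats. Rel, Relb and Rela had 46.5, 40.9 and 30.0 TPM. All 5 were lowest in replicate 2, as were 34.1% of the 5223 genes, and 4 of 5 were highest in replicate 3, as were 25.6% of them. Rel came nearest to the IkB genes, with 49.4, 24.8 and 65.3 TPM, 2.63-fold higher in replicate 3 than in replicate 2. The others differed by 1.22 to 1.70-fold between those libraries.

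All 6 genes of the IkB kinase list passed, against 50.5% of all genes tested. The list takes in a regulatory subunit and an upstream kinase, which do not phosphorylate IkB proteins themselves. Ikbke, which encodes a noncanonical kinase, had 1244, 1173 and 1046 TPM, above every IkB family gene in every library, and the related Tbk1 had 176 ± 25.2 TPM (SD, n = 3). The range of means was 17.8 to 1154 TPM, and the median log2 difference of replicates 3 and 2 was -0.10, against 1.499 in the IkB family and -0.027 over the 5223 genes. All 8 genes of the degradation machinery passed, again against 50.5% of all genes tested, with means of 5.83 to 41.9 TPM. The highest were Csnk2a1, a catalytic subunit of casein kinase, with 41.9 TPM, and the cullin gene Cul1 with 30.0 TPM. All 7 genes of other partners passed, among them Rnf123, a ubiquitin ligase gene, with 32.3 TPM. The order of replicates 2, 1, 3 was found in 3 of 8 and 1 of 7 genes of these 2 lists. It was found in 1 of 6 genes of the kinase list and in 13.5% of the 5223 genes of at least 10 TPM.

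Of 5 genes whose induction in macrophages is known to need Nfkbiz, 0 passed the floor, against 50.5% of all genes tested. In this limma fit 1 of the 5 had an unadjusted p under 0.05. Il6, a cytokine gene, had 3.25, 0.61 and 4.55 TPM (limma adjusted p = 0.13), and Lcn2, which encodes an iron-scavenging protein, had 2.71, 1.08 and 2.0 TPM (limma adjusted p = 0.0558). Il12b had 0.56, 0.08 and 1.75 TPM, and Csf3 and Csf2 had at most 0.12 TPM (limma adjusted p = 1 for the 3). Of the 5, 3 were lowest in replicate 2 and 2 had the order of replicates 2, 1, 3. These shares were 34.1% and 13.5% among the 5223 genes of at least 10 TPM, a level that none of the 5 reached. Lcn2 was highest in replicate 1 and Csf2 in replicate 2, while Csf3 was listed at 0 in replicate 1. Without replicate 2 both Il6 and Lcn2 passed, with limma adjusted p = 0.0024 and 0.0141, so the count was 2 of 5 without that library. In the second transcript table the count was 0.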

How the data were processed

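Chromatin-fraction total RNA-seq of 3 libraries in 1 group was used. The authors deposited for each library a gene table and a first transcript table of expected counts and TPM with an interval around each level, and a second transcript table with TPM beside estimated counts, per the file headers. The interval bounds are nonnegative signal values on the TPM scale, per the file headers. The layouts are those of RSEM and kallisto. The deposited text files name mm10 and annotation M21. Whether counting used strand, the aligner and the tool versions: not given in the sources used here.

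Rows naming no gene (1.04%, 0.425% and 0.401% of counts in replicates 1, 2 and 3) were left out. A count of 0 allows up to 3 counts, or 0.242, 0.164 and 0.165 CPM, counting error only. TPM was tested as log2(TPM + 0.1) with an intercept-only limma 3.58.1 fit with a mean-dependent prior, one-sided against 1 TPM, with Benjamini-Hochberg adjustment over 24180 genes. This scale understates differences near 0.1 TPM. The spread came from edgeR 4.0.16 with TMM and filterByExpr on expected counts rounded to whole numbers (14140 genes kept). In simulated data, 0%, 78%, 98% and 100% of 50 genes at 1, 2, 4 and 8 TPM were called among 22369 genes, and a coefficient of variation of 0.3 was estimated as 0.297 over 14078 genes. Coordinates and transcript types came from M21 (mm10), promoter windows from RefSeq (GRCm38.p6), and intron sequences from the M21 transcripts.

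The members, pathway lists and marker lists were chosen with earlier results of these data known, so no count over them is independent support. All members were named. From each pathway list the 2 highest genes and those missing the threshold were named (1 gene is not reported here). The 2 markers of other cells past the threshold were named, with 4 of those at 0 as examples, and Rel, Relb, Rela and the neighbouring genes were added after their values were seen. For each member the 3 nearest genes were listed. Protein sequences were not analysed here. DESeq2 1.42.0 size factors, matplotlib 3.10.9, scipy 1.17.1, pandas 2.3.3, numpy 2.4.6, python 3.11.15 and R 4.3.3 were also used.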

Additional observations from a re-analysis of the deposited data

How the results depend on the processing

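With 3 libraries and no second group, levels and spreads were described and not compared between conditions. All 6 IkB family members passed the floor under each of the 9 alternatives run (pseudocounts of 0.01 and 1, a mean count of at least 10, a floor of 5 TPM, the second transcript table, rescaled TPM and each replicate left out), and the counts of the other pathway lists with called genes stayed within 1.5 times. The number of genes above the floor was 12220, and it was 7384 with a floor of 5 TPM and 19620 in the second transcript table. Of the 5 genes known to need Nfkbiz, 1 passed with a pseudocount of 0.01, 1 with a mean count of at least 10, 2 with rescaled TPM, and 0 to 2 when 1 replicate was left out. Rescaling raised every level by 1.59 to 1.75 on the log2 scale and moved replicate 1 against replicate 2 by -0.16.

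In the second transcript table the log2 difference was 0.71 for Nfkbia over Nfkbiz, 2.22 for Nfkbiz over Nfkbie and -0.50 for Nfkbie over Nfkbid. In TMM-scaled CPM, which are not corrected for length, these were -1.04, 2.08 and 1.38. The retained-intron share in the second table was 16.7% for Nfkbia, 65.6% for Nfkbie and 21.5% for Bcl3. The cause of these changes was not tested.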
